A study of Mus musculus with 2 samples.

Results

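The Ifi200 genes encode mouse proteins that carry DNA-binding HIN domains, most of them with a pyrin domain that joins proteins into signalling complexes. The 9 genes described here are Ifi203, Ifi204, Ifi205, Ifi207, Ifi209, Ifi211, Ifi213, Mndal and Aim2. They were chosen by name, with earlier results of these data known. All 9 were found among the 31053 genes of the count matrices. The data are 1 droplet library from wild-type (WT) and 1 from CD169-DTR mice bearing GL261 glioma, a mouse glioma cell line. Both libraries hold live CD45.2+ PI- cells sorted from the tumor-bearing hemisphere, and each was pooled from 3 mice. Both groups were male mice of C57BL/6 background, 8 to 12 weeks old, that received 100000 glioma cells intracranially and were analysed at 10 dpi. Both were given diphtheria toxin (DT) at 40 ng/g on day -1 and day 4 relative to the tumor injection. The groups differed in genotype: CD169-DTR mice were heterozygous for an allele that puts the human DT receptor under the control of Siglec1, the gene of CD169, whereas WT mice lacked that allele. The allele is placed in Siglec1 itself, so the Siglec1 level in CD169-DTR cells counts both fewer CD169+ cells and 1 altered copy of the gene, and these cannot be told apart. The comparison asks how transcripts of the DNA-sensing family differ between cell classes and between gliomas with and without DT-depleted CD169+ cells.

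Innate immune cells use this family to notice DNA outside its usual place. AIM2 binds DNA in the cytosol and recruits the adaptor ASC and caspase-1 into an inflammasome, which releases IL-1β and IL-18. p204, the product of Ifi204, is known for handing DNA signals to STING, the adaptor that leads to type I interferon production. Most genes of the family are themselves induced by interferons, which act through transcription factors bound at interferon-stimulated response elements. The roles of Ifi207, Ifi209, Ifi211 and Ifi213 in the brain are less well described.

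A minimum of 1000 UMIs and a limit of 17% on mitochondrial UMIs left 10107 WT and 7604 CD169-DTR cells, with medians of 7776 and 8099.5 UMIs. The files hold 101808996 and 84065489 UMIs in all. Siglec1 was measured at 37.7 CPM (counts scaled to 1000000 UMIs of the class) in WT and 11.96 in CD169-DTR macrophages, and at 18.9 and 5.59 in microglia. The log2 ratios of WT over CD169-DTR were 1.66 (95% interval 1.37 to 1.95) and 1.76 (1.56 to 1.96), the direction the labels give. Clusters were named from fixed marker lists as microglia-like, macrophage-like and so on, and the names are written below without the ending. The libraries held 4809 and 5447 microglia, 2265 and 729 macrophages, 1189 and 247 dendritic cells (DC), 481 and 218 T cells, 329 and 86 NK cells, 75 and 124 B cells, 169 and 194 granulocytes, and 102 and 11 plasmacytoid DC (pDC), in the order WT and CD169-DTR. Despite the CD45.2 sort, 403 and 279 endothelial cells and 154 and 173 choroid plexus cells were also present. The summed markers of a class were highest in that class in both libraries, except that the macrophage list was higher in the 11 pDC (5846 CPM) than in the macrophages (5584 CPM) of CD169-DTR. The libraries shared 21 cell barcodes. Each group has 1 library and so no replicate check: library and genotype cannot be told apart, no test was run, and every interval is a 95% interval that covers counting error only.

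The members lie in a 680.9 kb stretch of distal chromosome 1, chr1:173350879-174031810 in the GRCm38 annotation, and all 9 are protein-coding genes. Other family genes (Ifi202b, Ifi206, Ifi208 and Ifi214) lie between them. The annotated span of Mndal holds Ifi211 and overlaps Ifi203. Aim2 and Ifi209 are on the plus strand, and the other members are on the minus strand. RefSeq promoter windows (GRCm38.p6, 250 bases before to 50 after each start site) were found for 8 of the 9 members, with none for Ifi204. The core of the interferon-stimulated response element, searched on both strands as a direct repeat of GAAA with any 2 bases between the copies, occurred in the windows of 6 of these 8 members and of 3.99% of 27025 genes with a window. The stretches below are shown because they carry that match, with the match in capitals and 15 bases on either side. They are written 5′ to 3′ on the strand of the gene. Further matches on the opposite strand, in a second window of Mndal and in the window of Ifi205, are not shown.

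Ifi203: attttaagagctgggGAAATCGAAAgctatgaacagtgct
Mndal: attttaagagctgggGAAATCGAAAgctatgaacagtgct
Ifi207: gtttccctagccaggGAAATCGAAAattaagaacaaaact
Ifi211: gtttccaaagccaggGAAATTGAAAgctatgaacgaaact
Ifi205: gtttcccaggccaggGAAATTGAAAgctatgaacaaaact
Ifi213: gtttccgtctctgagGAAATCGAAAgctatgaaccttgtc

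They lie, in that order and all on the minus strand, at chr1:173942503-173942542, chr1:173880199-173880238, chr1:173741826-173741865, chr1:173913059-173913098, chr1:174031865-174031904 and chr1:173599321-173599360. The match began 35, 36, 41, 37, 134 and 73 bases before the start site. Ifi203 and Mndal were identical at 40 of 40 bases, and Ifi205 and Ifi211 at 37 of 40. The Ifi213 stretch was identical at 40 of 40 bases to that of Ifi208, a family gene that is not among the 9. The windows of Aim2 and Ifi209 held no exact match to the former, which says only that these letters are not in those windows. The core of the interferon-γ-activated site was searched as TTC and GAA with any 3 bases between them. It occurred in the windows of 0 of the 8 members and of 9.55% of the 27025 genes. With only 8 members, 0 is close to what that share would give, so nothing is read from it.

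Close relatives also share transcript sequence, which bears on how their counts can be separated. Over the last 500 bases of the annotated transcripts, where 3′ reads fall, 59.0% of the 91-base windows of Ifi205 were also found in other genes (Ifi211 or Mndal), and the same share held for Ifi211. For Ifi209 the share was 58.5% (with Ifi214), for Ifi213 7.32% and for Mndal 4.14%. No window of Ifi203, Ifi204, Ifi207 or Aim2 was shared. Exons of Mndal overlap those of Ifi203 on the same strand, so reads from the overlap cannot be given to either gene. The values of Ifi205, Ifi209 and Ifi211 are therefore less certain than those of Ifi204, Ifi207 and Aim2. Because 3′ counts are not divided by length, levels are compared between cell classes and libraries and not between genes.

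Macrophages, DC and granulocytes held the highest summed level of the 9 members in WT gliomas, and microglia were well below them. The sum was 3652 CPM in macrophages, 3175 in DC, 2411 in granulocytes, 2022 in B cells, 1907 in NK cells, 1763 in pDC, 1752 in T cells, 786 in microglia, 372 in endothelial cells and 103 in choroid plexus cells. In CD169-DTR gliomas the order began with DC (1891 CPM) and macrophages (1751 CPM), followed by T cells (1107 CPM), pDC (1010 CPM), B cells (907 CPM), NK cells (820 CPM), granulocytes (656 CPM) and microglia (535 CPM). The lowest sums were again in endothelial cells (198 CPM) and choroid plexus cells (45.1 CPM). The sum hid several patterns, which are given next by members that vary alike over the classes.

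Ifi203 and Mndal were at their highest in lymphocytes, macrophages and DC, and were lowest in microglia and choroid plexus cells. Ifi203 stood at 499 CPM in T cells, 467 in NK cells, 466 in macrophages, 441 in DC, 423 in pDC and 400 in B cells of the WT library. The counting intervals of these neighbours overlapped in many cases, so the order within the group is not firm. The same gene was at 86.1 CPM in endothelial cells, 77.4 in granulocytes, 13.1 in choroid plexus cells and 9.73 in microglia. Mndal, whose human relative MNDA marks myeloid cells, ran from 568 CPM in NK cells through 555 in DC, 544 in macrophages, 534 in T cells and 490 in B cells to 120 in granulocytes, 84.4 in endothelial cells and 11.2 in microglia. WT macrophages exceeded WT microglia 47.9-fold in Ifi203 and 48.5-fold in Mndal, and CD169-DTR macrophages exceeded CD169-DTR microglia 81.2-fold and 64.4-fold. RNA free in the suspension bears on the low microglial values. Its profile was read from barcodes with 10 to 100 UMIs. Its amount per droplet was the mean over microglia by choroid plexus markers (219 UMIs in WT and 211 in CD169-DTR). It was also read as the median over lymphocytes by microglial markers (119.8 and 77.6 UMIs). These estimates differ widely, so each expected share is given by the former and then by the latter. The mean over lymphocytes, 1587 and 806 UMIs, was higher than both and was used in no share or subtraction. In WT microglia 54.2% or 29.7% of the Ifi203 UMIs and 61.5% or 33.7% of the Mndal UMIs were expected from free RNA. In CD169-DTR microglia the shares were 45.8% or 16.9% for Ifi203 and 39.8% or 14.6% for Mndal, whereas in WT macrophages neither gene passed 1.40% by either estimate.

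Ifi204, Ifi207 and Ifi211 were instead highest in macrophages, granulocytes and DC of WT gliomas. Ifi204 reached 1132 CPM in granulocytes, 803 in macrophages, 461 in DC and 323 in microglia of the WT library, with 259 in NK cells, 224 in B cells and 100.2 in T cells. Ifi207 was at 413 CPM in macrophages and 407 in granulocytes, whose intervals overlapped, then at 281 in DC, 191 in pDC, 132 in microglia, 109.5 in B cells, 39.8 in NK cells and 31.0 in T cells. Ifi211 was at 391 CPM in macrophages, 342 in DC and 219 in granulocytes, and then at 109.5 in B cells, 91.9 in pDC, 63.5 in NK cells, 62.3 in microglia and 36.2 in T cells. The intervals of microglia and B cells overlapped in Ifi207, and those of B cells and pDC lay above that of microglia in Ifi211. In WT microglia 3.08% or 1.69% of the Ifi204 UMIs and 3.72% or 2.04% of the Ifi207 UMIs were expected from free RNA. Macrophages were above microglia 2.48-fold in Ifi204, 3.14-fold in Ifi207 and 6.27-fold in Ifi211 in WT, and 1.86-, 3.15- and 5.72-fold in CD169-DTR. In WT T cells the expected shares were 10.2% or 5.56% for Ifi204 and 16.1% or 8.84% for Ifi207. By the mean of microglial markers over lymphocytes these shares would be larger. CD169-DTR NK cells held only 3 Ifi207 UMIs, for which the shares were 71.1% or 26.1%.

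Ifi209 and Ifi213 were spread over both kinds of cell. Ifi209 was at 536 CPM in macrophages, 459 in DC, 389 in B cells, 332 in T cells, 321 in NK cells, 296 in granulocytes and 99.2 in microglia of WT gliomas. Ifi213 was at 229 CPM in macrophages, 180 in DC, 156 in T cells, 141 in B cells, 124 in NK cells and 65.4 in microglia. Macrophages exceeded microglia 5.41-fold in Ifi209 and 3.50-fold in Ifi213 in WT, and 3.41-fold and 2.57-fold in CD169-DTR.

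Ifi205 was a DC and macrophage gene. It was at 403 CPM in DC and 221 in macrophages of WT gliomas, and at 97.4 in B cells, 31.9 in granulocytes, 24.6 in T cells, 13.7 in NK cells and 8.83 in microglia. In CD169-DTR gliomas it was at 190 CPM in DC and 59.2 in macrophages, at 2.45 in microglia, and close to nothing in most other classes: 4 UMIs were counted in T cells, 1 in B cells, 1 in NK cells and 0 in granulocytes, endothelial cells and choroid plexus cells. Macrophages exceeded microglia 25.1-fold in WT and 24.2-fold in CD169-DTR.

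Aim2, the inflammasome sensor, was the member with the flattest profile and the only one higher in microglia than in macrophages. It was at 74.7 CPM in microglia, 60.9 in B cells, 51.6 in NK cells, 50.5 in DC, 50.1 in granulocytes, 49.4 in macrophages, 39.3 in T cells and 32.1 in pDC of WT gliomas, and at 12.1 in endothelial and 3.19 in choroid plexus cells. From B cells to macrophages the intervals of neighbours overlapped. The macrophage level was 0.66 times the microglial level in WT and 0.56 times in CD169-DTR, where microglia were at 75.9 CPM.

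**Figure D1:**
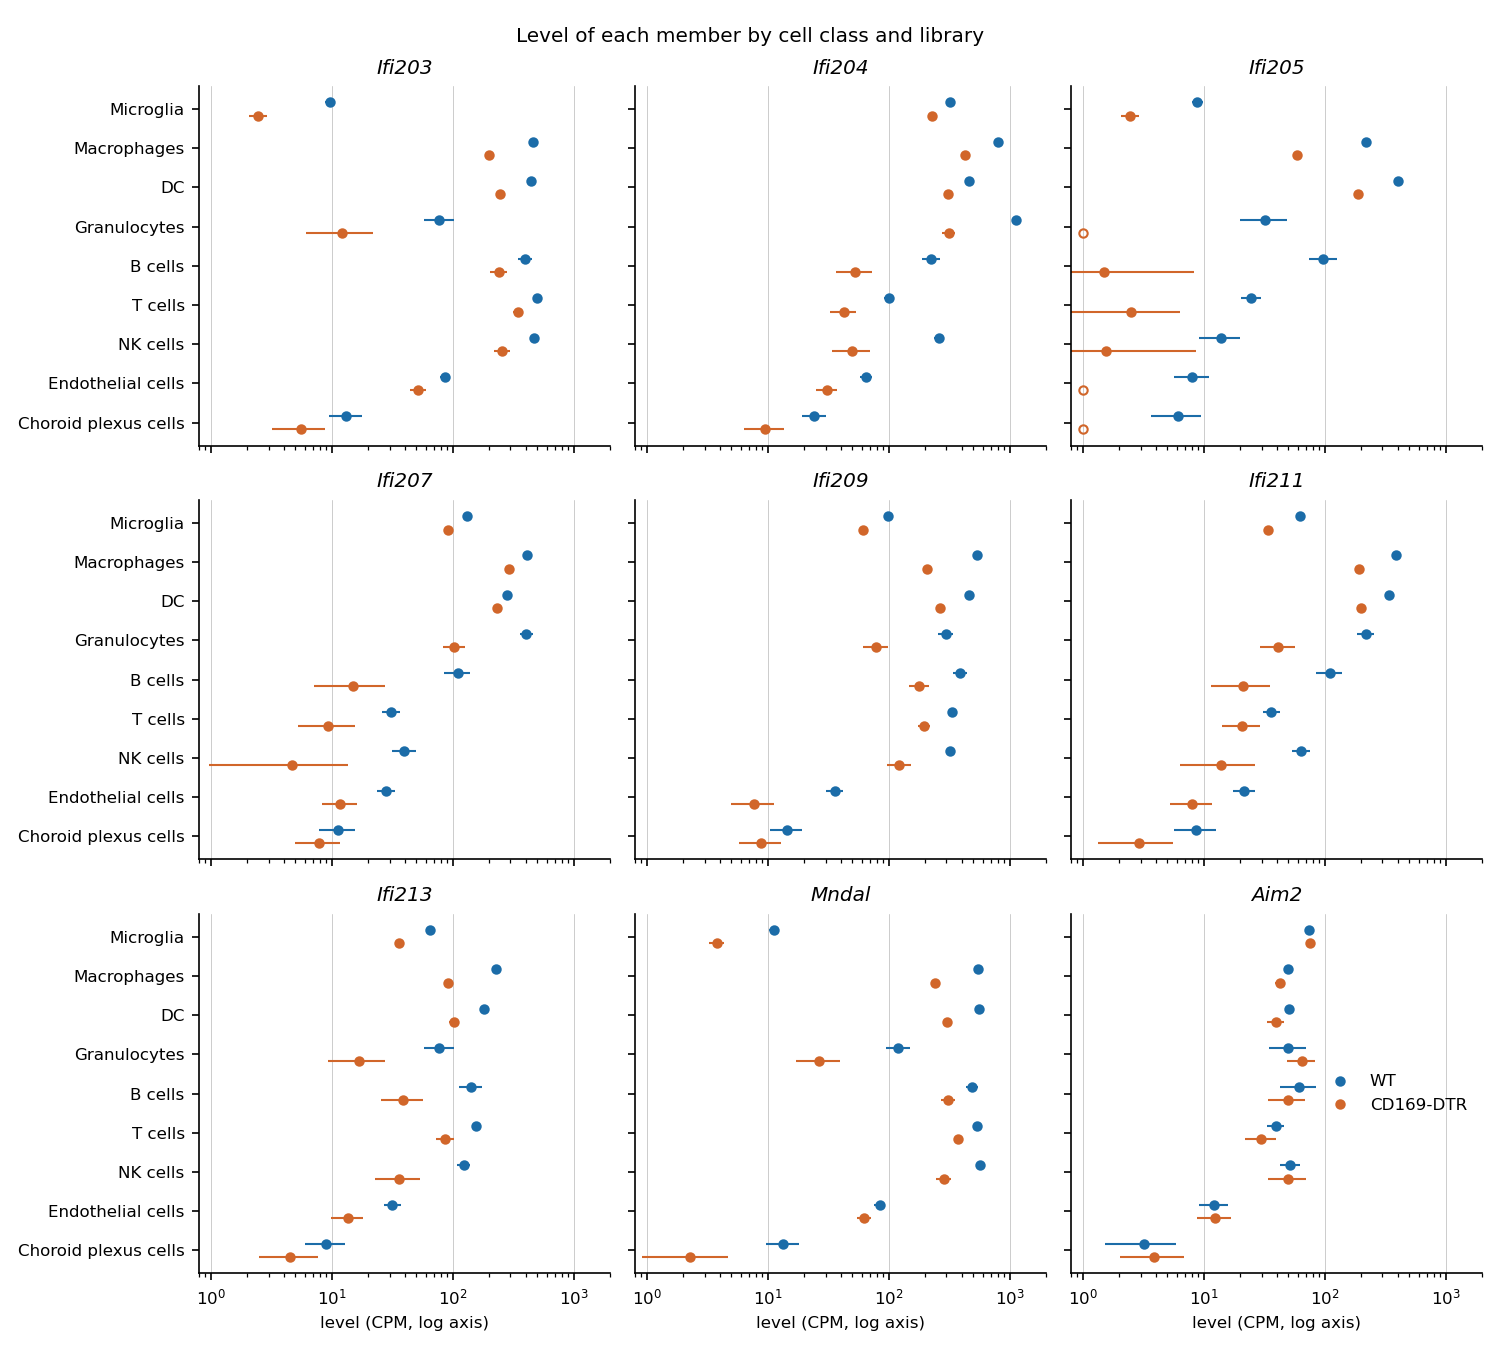
Each panel plots 1 member, with its level in CPM on a log axis for 9 cell classes, WT in blue and CD169-DTR in orange; bars are 95% counting intervals and open circles at the left edge mark classes with 0 UMIs. Ifi203 and Mndal sit at 9.73 and 11.2 CPM in WT microglia but above 400 CPM in WT macrophages and DC, whereas Aim2 is at 74.7 CPM in WT microglia and 49.4 CPM in WT macrophages.

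These groupings can be described by the correlation of log levels over the 19 pairs of class and library with at least 50 cells. The points share libraries and depths, so the coefficients are descriptions. Pearson's r was 0.99 for Ifi203 with Mndal, 0.93 for Ifi204 with Ifi207, 0.93 for Ifi207 with Ifi211 and 0.93 for Ifi209 with Ifi213, but 0.25 for Ifi203 with Ifi204 and 0.27 for Ifi203 with Aim2. Among 12863 genes ranked by the same measure, those most like Ifi203 were Tpt1 (0.94), Mrpl30 (0.92) and Itgb7 (0.92), and those most like Mndal were Itga4 (0.93), Tpt1 (0.92) and Itgb7 (0.92). Itga4 and Itgb7 encode integrin chains of circulating leukocytes. Ifi204 was most like Abcg1, Oasl1 and Plekho2 (0.93 each). Ifi207 and Ifi211 both had the monocyte gene Ly6i and Sap30 among their 3 closest genes, and Ifi205 had Ms4a6c (0.92) and Ms4a4c (0.90). The interferon-induced genes Epsti1 (0.95) and Mx1 (0.95) were closest to Ifi209 and Ifi213. Aim2 stood apart with Inpp5d (0.97), a phosphatase gene of leukocytes, Gmip (0.96) and Dock8 (0.95).

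Between the libraries, the family was higher in WT than in CD169-DTR in all 9 classes with at least 50 cells in both libraries, with 7 or 8 of the members past the fold in each, while Aim2 did not pass the fold in any class. A member was counted as higher when it had at least 20 UMIs over both libraries and a log2 ratio of at least 0.5. In macrophages 8 of 9 members passed, where 10.6% of all 11743 genes did. In microglia 8 of 9 members passed, against 4.58% of 13755 genes. Among these 8, Ifi203, Ifi205 and Mndal had the largest share of UMIs expected from free RNA. In DC 7 of 9 members passed, against 11% of genes, but only 4 did among cells of 5000 to 10000 UMIs, with median depths of 11282 UMIs per WT and 14432 per CD169-DTR cell over all DC. The counts were 8 of 9 in granulocytes (13.7%), 8 of 9 in B cells (17.3%), 8 of 9 in T cells (19.4%), 8 of 9 in NK cells (15.2%), 7 of 9 in endothelial cells (7.12%) and 7 of 8 in choroid plexus cells (6.27%), where Ifi205 missed the count minimum and where 4 passed among cells of 5000 to 10000 UMIs. The choice of these depths was made after seeing the data. No member was lower in WT by the same fold in any of the 9 classes. The median log2 ratio of the members was 1.16 in macrophages, beside -0.05 over all genes, and 0.88 in microglia, beside -0.04.

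The macrophage difference was led by Ifi205 and was graded over the members. Ifi205 was at 221 CPM in WT and 59.2 CPM in CD169-DTR (log2 ratio 1.90, 1.77 to 2.03). Ifi209 was at 536 and 208 CPM (1.36, 1.29 to 1.43) and Ifi213 at 229 and 91.7 CPM (1.32, 1.22 to 1.43). These members stood above the pair Ifi203, at 466 and 200.4 CPM (1.22, 1.15 to 1.29), and Mndal, at 544 and 243 CPM (1.16, 1.10 to 1.23). Ifi211 was at 391 and 193 CPM (1.02, 0.95 to 1.09). Ifi204, the sensor linked to STING, was at 803 and 424 CPM (0.92, 0.87 to 0.97). Ifi207 was at 413 and 290 CPM, and its ratio of 0.51 (0.45 to 0.57) lay just past the fold. Aim2 was at 49.4 and 42.5 CPM (0.22, 0.05 to 0.39). Macrophages of the 2 libraries differed in depth, with medians of 7239 UMIs per WT cell and 11742 per CD169-DTR cell. Among cells of 5000 to 10000 UMIs, the summed log2 ratio in macrophages was 0.94, beside 1.06 (1.04 to 1.08) over all cells, while Aim2 turned to -0.28.

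In microglia the largest ratios were those of Ifi203, Ifi205 and Mndal, the members with the widest gap between macrophages and microglia. Ifi203 was at 9.73 CPM in WT and 2.47 in CD169-DTR (log2 ratio 1.98, 1.69 to 2.28), Ifi205 at 8.83 and 2.45 CPM (1.85, 1.56 to 2.15) and Mndal at 11.2 and 3.77 CPM (1.57, 1.33 to 1.82). Free RNA moved the same way: the 9 members summed to 1986 CPM in the free RNA of the WT library and to 747 CPM in that of CD169-DTR. With the estimated free RNA subtracted, by microglial or by choroid plexus markers, the ratios were 1.75 and 1.74 for Ifi203, 1.59 and 1.36 for Ifi205 and 1.22 and 0.93 for Mndal. The other members had smaller ratios. They were 0.89 (0.80 to 0.97) for Ifi211, at 62.3 and 33.7 CPM, and 0.88 (0.79 to 0.96) for Ifi213, at 65.4 and 35.6 CPM. Ifi209 was at 99.2 and 61.2 CPM (0.70, 0.63 to 0.76), Ifi207 at 132 and 91.8 CPM (0.52, 0.46 to 0.58) and Ifi204 at 323 and 228 CPM (0.50, 0.47 to 0.54), the last of these at the edge of the fold and under it, at 0.498 and 0.491, after either subtraction. Aim2 was level, at 74.7 and 75.9 CPM (-0.02, -0.09 to 0.05).

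DC and lymphocytes showed the same direction with another emphasis. In DC the ratios ran from 1.09 (0.97 to 1.20) for Ifi205 to 0.26 (0.16 to 0.37) for Ifi207, which like Aim2 (0.36, 0.10 to 0.63) missed the fold. In T cells Ifi203 was at 499 and 346 CPM (0.53, 0.39 to 0.67) and Mndal at 534 and 373 CPM (0.52, 0.39 to 0.65), both just past the fold, while Ifi204 was at 100.2 and 42.4 CPM (1.24, 0.87 to 1.63). The median over all genes in T cells was 0.11, so the T cell ratios sit on a raised background. In NK cells Ifi204 was at 259 and 49.7 CPM (2.38, 1.87 to 2.94) and Ifi209 at 321 and 123 CPM (1.39, 1.05 to 1.74). In B cells Ifi205 gave 56 UMIs in WT and 1 in CD169-DTR (log2 ratio 6.03, 3.49 to 11.36), and Ifi204 was at 224 and 52.2 CPM (2.10, 1.55 to 2.69). The summed level of 12 macrophage markers moved the same way in lymphocytes. It was 3467 CPM in WT and 895 CPM in CD169-DTR B cells (with Chil3, Arg1 and Ms4a8a at 0 in the latter), 2100 and 1189 CPM in T cells (Vcan at 0) and 1509 and 770 CPM in NK cells (Chil3, Vcan, F10, Ms4a8a and Thbs1 at 0), and all 12 were above 0 in each WT class. The part of these markers in the lymphocyte ratios was not tested. After free RNA was subtracted by either marker set, the Ifi204 ratio was 1.24 and 1.29 in T cells. It was 2.41 and 2.49 in NK cells and 2.15 and 2.25 in B cells. The Mndal ratio in T cells was 0.51 and 0.499. The larger amount given by the mean of microglial markers over lymphocytes was not subtracted.

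Granulocytes had the largest difference in the sum, 2411 against 656 CPM (log2 ratio 1.88, 1.74 to 2.02). Marker levels of the class differed as well: the 8 granulocyte markers summed to 65246 CPM in WT and 120390 CPM in CD169-DTR, and the 12 macrophage markers to 3803 and 2469 CPM, with Vcan, Arg1 and Ms4a8a at 0 in CD169-DTR. Their part in the difference was not tested. Ifi204 was at 1132 CPM in the 169 WT and 313 CPM in the 194 CD169-DTR granulocytes (1.85, 1.66 to 2.06), Ifi207 at 407 and 103 CPM (1.98, 1.63 to 2.33) and Ifi211 at 219 and 41.1 CPM (2.41, 1.88 to 2.97). Ifi205 had 21 UMIs in WT and 0 in CD169-DTR, at least 9.57-fold higher when the 0 is set to 3 counts for that library. Aim2 was at 50.1 and 64.4 CPM (-0.36, -1.02 to 0.28), an interval that holds 0. Endothelial cells differed by 0.91 (0.78 to 1.04) in the sum, with Ifi209 at 35.6 and 7.68 CPM (2.21, 1.60 to 2.88). Choroid plexus cells, which should make little of the family, had a summed level of 103 CPM in WT and 45.1 in CD169-DTR (1.19, 0.90 to 1.49), of which 17.02% to 27.05% per member, or 9.32% to 14.8%, was expected from free RNA in WT.

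**Figure D2:**
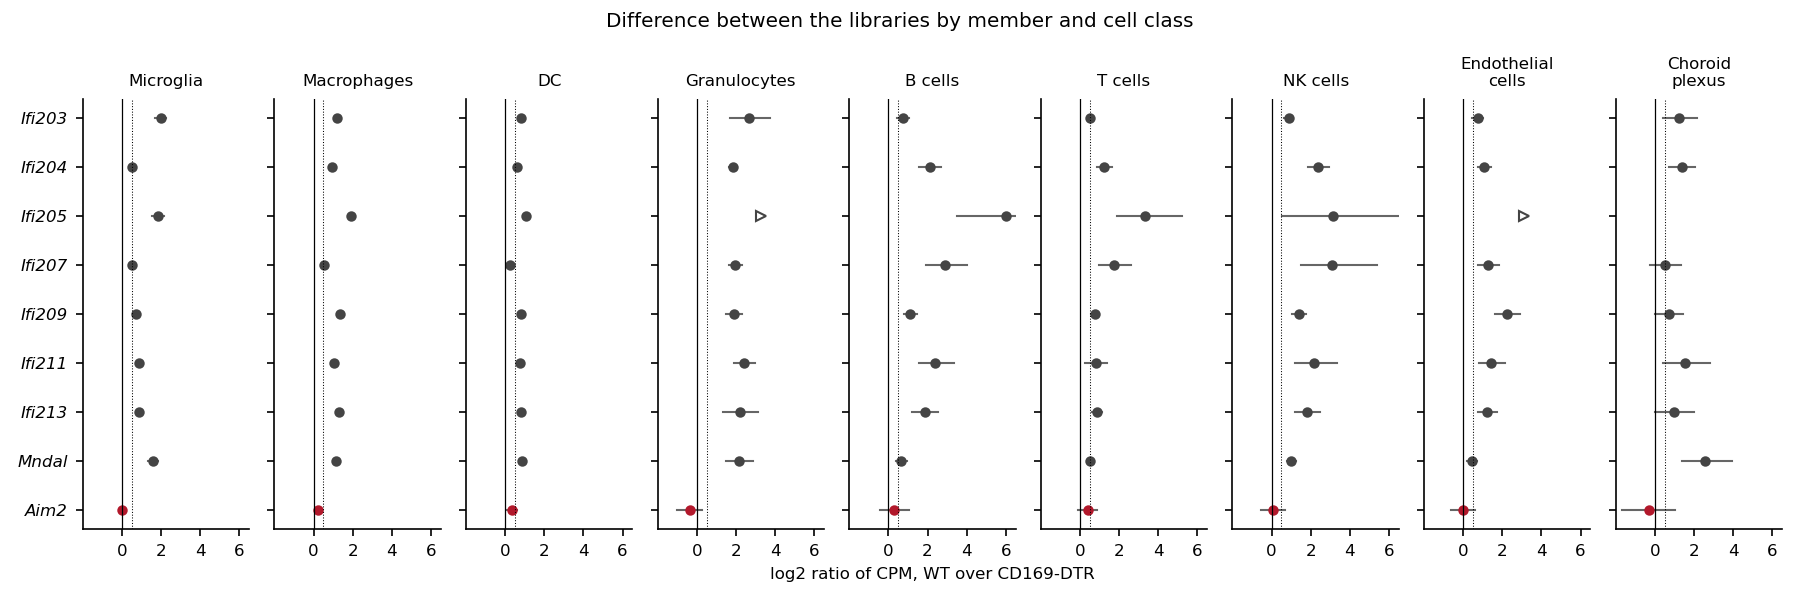
Each panel plots 1 cell class, with the log2 ratio of CPM in WT over CD169-DTR for each member and its 95% counting interval; the solid line marks 0 and the dotted line the fold of 0.5. In macrophages the points run from 0.22 for Aim2 to 1.90 for Ifi205, and Aim2 lies left of the dotted line in all panels.

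In macrophages and in microglia, the highest and the lowest cluster differed by more than the libraries did. Among macrophages, the cluster led by Clec4e and F10 had a summed level of 5409 CPM in WT and 3327 in CD169-DTR, the Gpnmb and Ms4a7 cluster 2010 and 1047 CPM, and the Ear2 and Adgre4 cluster 1477 and 1052 CPM. The Clec4e cluster thus stood 2.69-fold above the Gpnmb cluster in WT and 3.18-fold in CD169-DTR. WT was higher in all 3 macrophage clusters, with log2 ratios of 0.70, 0.94 and 0.49, each smaller than the 1.06 of the pooled class. The Ear2 cluster made up 181 of the 2265 WT and 145 of the 729 CD169-DTR macrophages. Weighting the 3 clusters equally gave 0.71. In the Clec4e cluster Ifi204 reached 1145 and 769 CPM, Ifi209 860 and 448 CPM and Mndal 808 and 459 CPM. Ifi205 was at 387 and 159 CPM there, at 59.9 and 14.7 CPM in the Gpnmb cluster and at 45.5 and 14.9 CPM in the Ear2 cluster.

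Microglia were even less uniform. The cluster led by P2ry12 and Slc2a5, genes of homeostatic microglia, had a summed level of 235 CPM in WT and 188 in CD169-DTR. The cluster led by Cxcl13 and Ifnb1, the gene of interferon-β, had 1922 and 1555 CPM, 8.18- and 8.26-fold more. Member by member, this step was 42.6-fold in WT and 100.7-fold in CD169-DTR for Ifi211, 26.7- and 20.3-fold for Ifi213, 17.3- and 22.3-fold for Ifi207, 9.70- and 9.39-fold for Ifi209 and 9.49- and 10.8-fold for Ifi204. The Ifi211 step rests on only 31 WT and 18 CD169-DTR UMIs in the P2ry12 cluster. Ifi203 and Mndal stayed low even in the Cxcl13 cluster, at 14.0 and 14.8 CPM in WT. Aim2 moved from 80.9 to 93.9 CPM in WT and from 80.5 to 93.8 CPM in CD169-DTR, a step of 1.16- and 1.17-fold. Between the libraries, the sum was higher in WT in all 9 microglial clusters, with log2 ratios from 0.31 in the Cxcl13 cluster and 0.32 in the P2ry12 cluster to 0.57 in the Mki67 cluster and 0.69 in the Spp1 cluster, beside 0.56 (0.53 to 0.58) in the pooled class. The other 5 clusters lay between 0.35 and 0.48.

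Among DC, Ifi205 marked the cluster led by Xcr1, a receptor of cross-presenting conventional DC, at 843 CPM in WT and 694 in CD169-DTR, whereas the Cd209a cluster had 302 and 71.8 CPM. The summed level of these clusters was alike in WT, 3354 against 3349 CPM. The Ccr7 cluster, with 149 WT and 15 CD169-DTR cells, had 1826 and 1626 CPM in the sum. Ifi205 went the other way there, at 116 CPM in WT and 179 in CD169-DTR (-0.63, -1.11 to -0.13). Endothelial cells fell into a Plvap cluster at 626 and 513 CPM and a Cldn5 cluster at 330 and 136 CPM, and in the Plvap cluster Ifi203 was at 234 and 167 CPM and Mndal at 244 and 202 CPM.

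**Figure D3:**
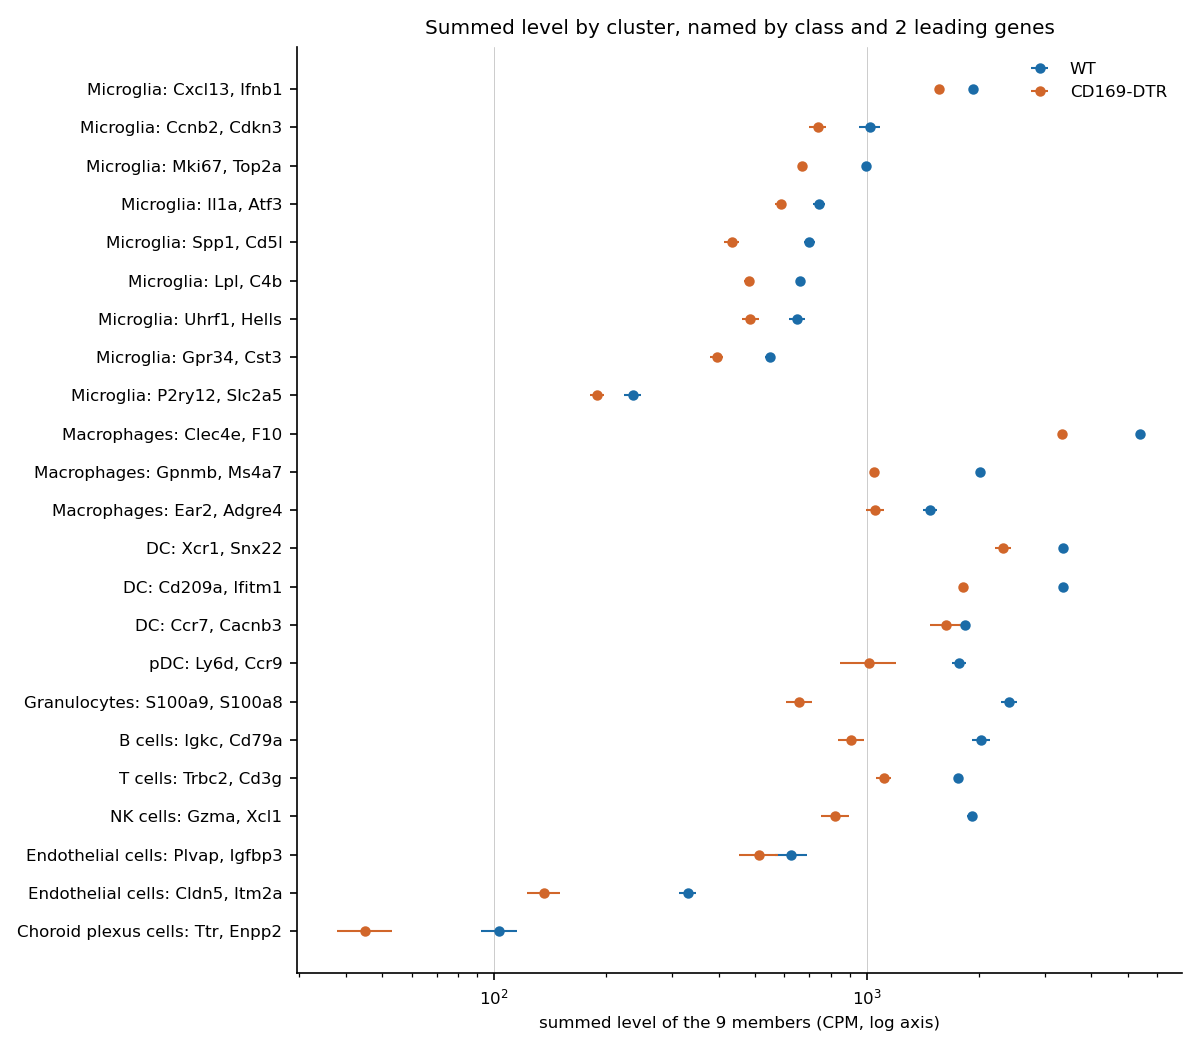
The summed level of the 9 members in CPM (log axis) is plotted for each cluster of a named class, with WT in blue, CD169-DTR in orange and 95% counting intervals; clusters carry their class and 2 leading genes. Macrophage clusters run from 1477 to 5409 CPM in WT, and microglial clusters from 235 to 1922 CPM.

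The family was next read against the interferon response of the same cells. The bins below carry the name of a gene list, and which interferon acted on the cells was not tested. Cells were thinned to 4500 UMIs and placed in 4 bins by their UMIs of 8 type I response genes. These were Ifit1, Ifit2, Ifit3, Isg15, Rsad2, Oasl2, Usp18 and Mx1, none of them a member. The split was chosen after seeing the data. In WT macrophages the summed level was 861 CPM in cells with 0 to 2 such UMIs and 6383 CPM in cells with 30 or more, a 7.41-fold step. In CD169-DTR macrophages it was 726 and 5662 CPM, a 7.79-fold step. In microglia the steps were 9.77-fold, from 248 to 2419 CPM, and 10.6-fold, from 215 to 2275 CPM. The steepest member in macrophages was Ifi205, 24.8-fold in WT and 61.3-fold in CD169-DTR. Its lowest bin held only 17 and 8 UMIs, and the log2 intervals of the steps overlapped (3.95 to 5.42 and 4.92 to 7.17). Ifi213 rose 14.1- and 14.3-fold over the same bins. The shallowest were Ifi207 (3.18- and 3.35-fold) and Aim2, which went from 37.6 to 64.2 CPM in WT (1.71-fold) and from 43.2 to 51.7 CPM in CD169-DTR (1.20-fold).

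At matched bins the libraries differed less in macrophages than in the class as a whole. From the lowest to the highest bin the log2 ratio of the sum, WT against CD169-DTR, came to 0.25 (0.10 to 0.39), 0.11 (-0.01 to 0.22), 0.04 (-0.04 to 0.12) and 0.17 (0.11 to 0.24), beside 1.06 in the class, and the intervals of the lowest and the highest bin lay above 0. Past the fold were 2 of the 9 members in the lowest bin (Ifi205 and Ifi209), where 10.4% of all genes passed, 1 in each of the next 2 bins (Ifi205; 14.6% and 15% of genes) and 0 in the highest (16.4%). The Ifi205 ratio was 1.40 (0.11 to 2.82), 1.30 (0.36 to 2.35) and 0.65 (0.20 to 1.12) in the first 3 bins and 0.10 (-0.14 to 0.34) in the highest. The libraries also differed in how many cells fell in each bin: 43.7% of 1607 WT macrophages (41.3% to 46.2%) and 13.2% of 652 CD169-DTR macrophages (10.7% to 16.03%) were in the highest, and 12.9% and 39.4% in the lowest. In microglia 7.77% and 3.99% were in the highest bin and 30.6% and 48.4% in the lowest. The summed microglial ratios within bins were 0.20, 0.26, 0.20 and 0.09. Past the fold were 5, 4, 3 and 3 of the 9 members in the microglial bins, where 3.15%, 4.01%, 5.2% and 9.68% of genes passed. Ifi203, Ifi205 and Mndal, the members with the largest expected share of free RNA, were among them in all 4 bins. Ifi209 and Ifi211 passed as well in the lowest bin, and Ifi211 in the next. In the highest bin the Ifi203 interval held 0 (0.85, -0.12 to 1.93).

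**Figure D4:**
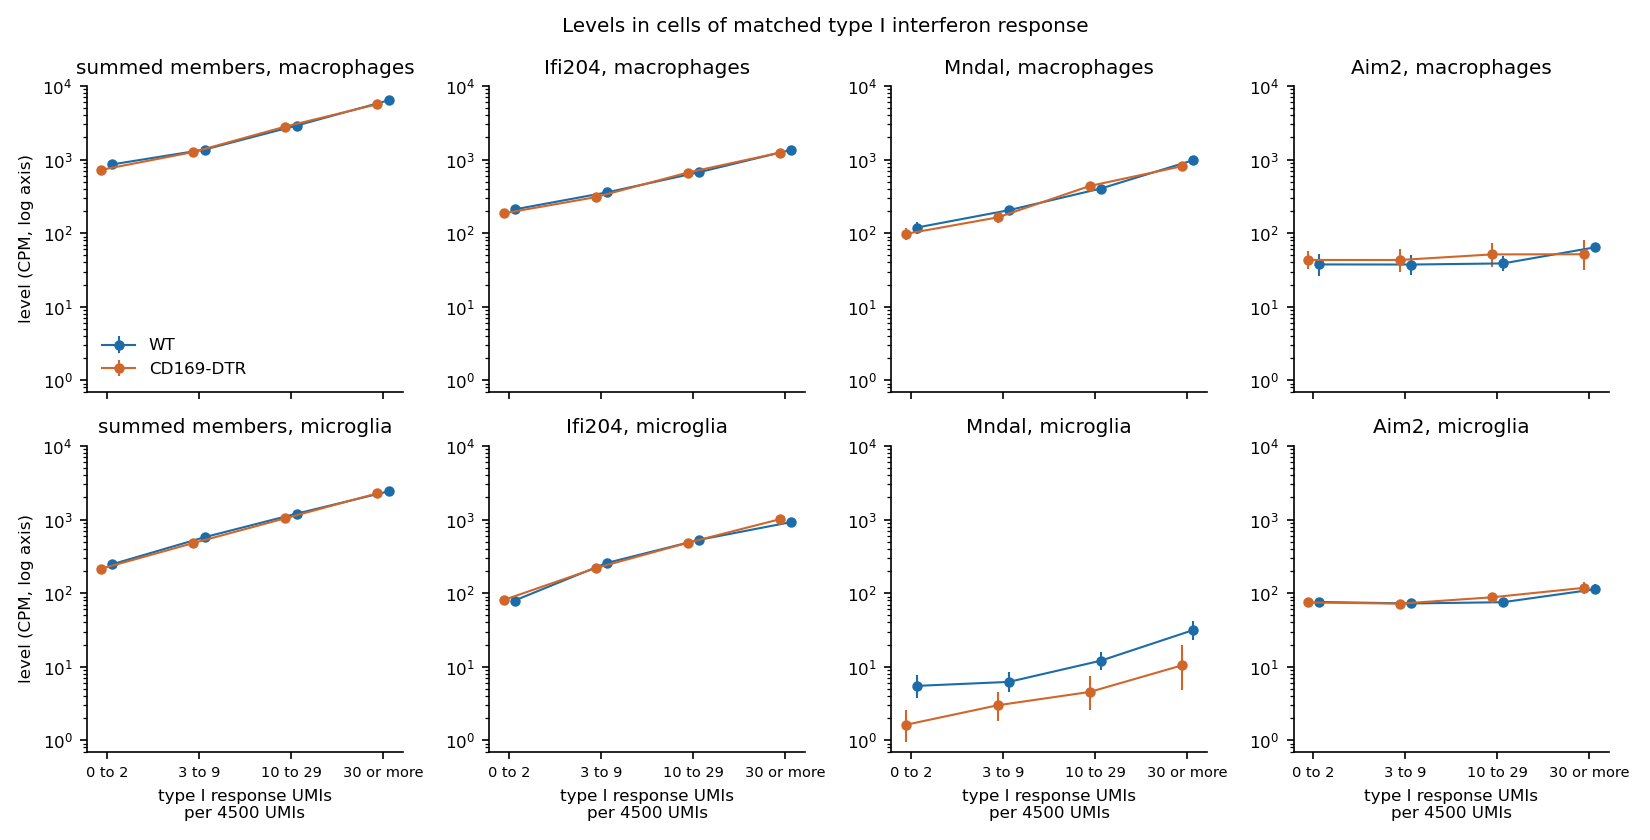
Levels in CPM (log axis) of the summed members, Ifi204, Mndal and Aim2 are plotted against bins of type I response UMIs per 4500 UMIs, for macrophages (top) and microglia (bottom), with WT in blue, CD169-DTR in orange and 95% counting intervals. The summed level climbs from 861 to 6383 CPM in WT macrophages with the CD169-DTR line beside it, Aim2 stays between 37.4 and 64.2 CPM in WT macrophages, and Mndal in microglia keeps a gap between the libraries.

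The study also set CD169+ against CD169- macrophages of GL261 gliomas. Siglec1 was too sparse to sort cells with certainty, since a cell without a UMI may still express it. Cells with and without a Siglec1 UMI were therefore compared within each library. The Siglec1 UMI was called before thinning, and levels were compared after it. Deeper cells were thus more likely to be called with a UMI, and the part of depth in these ratios was not tested. In WT macrophages the family hardly differed: the 387 cells with a UMI had a summed level of 4088 CPM and the 1220 without had 3840 CPM (log2 ratio 0.09, 0.05 to 0.13). The ratio was largest for Ifi213, at 269 and 221 CPM (0.29, 0.13 to 0.44), and the intervals of Ifi203, Ifi205, Ifi207, Ifi209, Mndal and Aim2 held 0. In CD169-DTR macrophages the 88 cells with a UMI had 2553 CPM and the 564 without had 1857 CPM (0.46, 0.36 to 0.56). The largest ratio was that of Ifi203, at 364 and 213 CPM (0.77, 0.50 to 1.04), but with thinning to 1500 UMIs it was that of Ifi205 (1.38, beside 0.46 for Ifi203), and likewise without thinning (0.43 beside 0.36). Microglia, in which the study did not detect CD169, were split in the same way. Whether their Siglec1 UMIs came from the microglia, from free RNA or from doublets was not tested. Microglia split more widely. The 599 WT microglia with a Siglec1 UMI had 1252 CPM and the 3506 without had 694 CPM (0.85, 0.79 to 0.91), and the CD169-DTR microglia had 959 and 486 CPM (0.98, 0.89 to 1.07). Ifi213 was at 137 and 53.2 CPM in the split of WT microglia (1.36, 1.18 to 1.54), and Ifi204 at 517 and 289 CPM (0.84, 0.75 to 0.92). The members far higher in macrophages than in microglia rose too in that split. Their ratios were 0.92 (0.36 to 1.44) for Ifi203, 1.29 (0.77 to 1.79) for Ifi205 and 1.36 (0.86 to 1.84) for Mndal. Aim2 gave 0.12 and -0.12 in macrophages and -0.20 and 0.00 in microglia, with all 4 intervals holding 0.

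**Figure D5:**
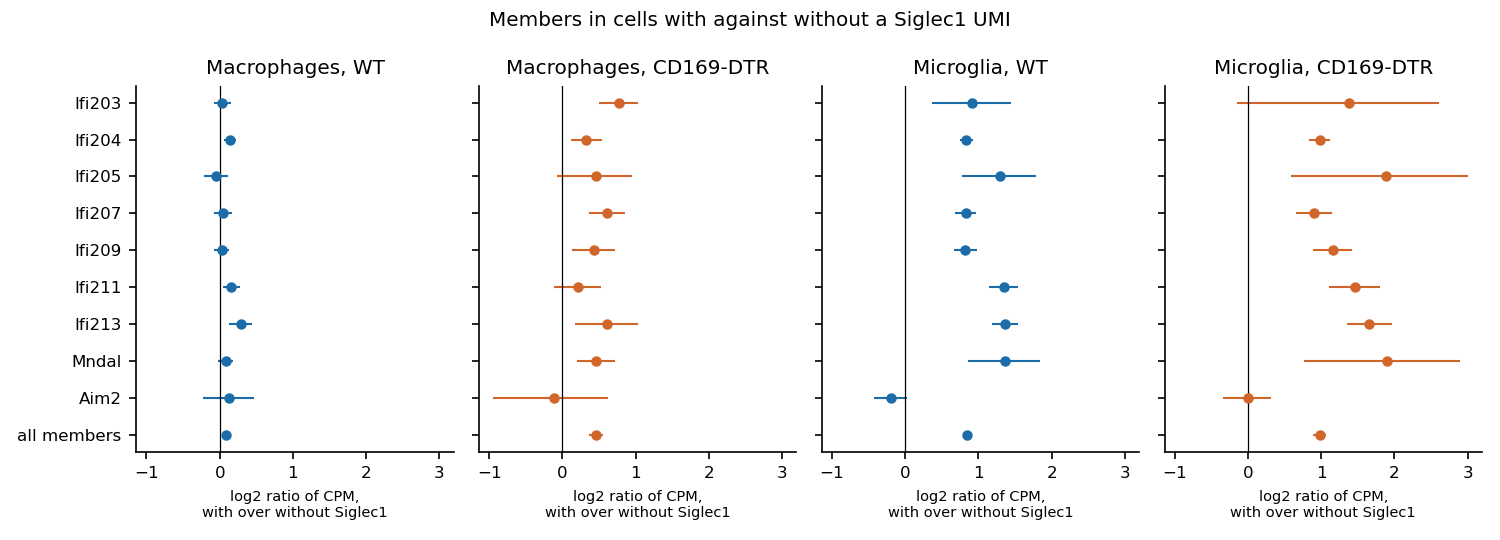
The log2 ratio of CPM in cells with over cells without a Siglec1 UMI is plotted for each member and their sum. Panels show macrophages and microglia of each library. Bars are 95% counting intervals after thinning to 4500 UMIs, with the Siglec1 UMI called before thinning. In WT macrophages the sum is at 0.09 and in WT microglia at 0.85, and the Aim2 interval crosses 0 in every panel.

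Single cells often held several members at once. Thinned to 4500 UMIs, macrophages carried UMIs of 5.53 members on average in WT and 3.75 in CD169-DTR, DC 5.38 and 4.38, T cells 3.25 and 2.22, and microglia 1.97 and 1.38. Choroid plexus cells, a comparator that should lack the family, carried 0.31 and 0.13, with median depths set equal by the thinning. At least 4 members were seen in 78.2% of WT and 50.8% of CD169-DTR macrophages, and in 17.1% and 7.98% of microglia. Ifi204 had a UMI in 84.8% of WT macrophages (83.0% to 86.5%) and 66.4% of CD169-DTR macrophages (62.6% to 70.0%), and in 59.3% and 45.7% of microglia, against 7.64% and 2.44% of choroid plexus cells. Without thinning, the macrophage shares of Ifi204 were 90.3% and 87.2%. Mndal had a UMI in 73.5% and 52.3% of thinned macrophages, and in 3.29% and 1.06% of microglia, beside 5.56% and 1.22% of choroid plexus cells. These microglial shares do not exceed those of the comparator, which had 144 and 164 cells, so they alone are not read as expression. The thinned microglial level of Mndal was 5.71-fold higher in WT and 6.42-fold higher in CD169-DTR in the highest than in the lowest interferon bin. These steps rest on 45 and 31 UMIs in WT (log2 interval 1.82 to 3.22). In CD169-DTR they rest on 9 and 17 UMIs (1.33 to 3.93). The source of the Mndal UMIs in microglia, beyond the free RNA shares given above, was not tested. Mndal is among the members past the fold in microglia, and its ratio there carries the same limit. So does the ratio of Ifi203, whose WT level was lower in microglia than in choroid plexus cells. Aim2 had a UMI in 28.2% and 28.5% of microglia and in 19.7% and 18.6% of macrophages.

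Genes that work with the family were read from fixed lists. Of 9 other family genes searched, 4 were in the matrices: Ifi206, Ifi208 and Ifi214 passed the fold in macrophages, with log2 ratios of 1.28, 1.29 and 1.77, and in microglia, with 0.63, 0.84 and 0.59. Ifi202b was nearly silent, with 3 UMIs in macrophages of WT and 1 in those of CD169-DTR, and 0 in microglia of either library. In the DNA to STING arm, 4 of 9 genes with at least 20 UMIs passed in macrophages: the cGAS gene Mb21d1 (0.74), Irf7 (1.27), Samhd1 (0.95) and Zbp1 (1.19), another nucleic acid sensor. Tmem173, the gene of STING, was at 61.6 and 53.5 CPM (0.20, 0.05 to 0.35), and Trex1 was listed at 0 UMIs in both libraries. In microglia Irf7 (0.63), Zbp1 (0.53) and Ikbke (0.79) passed, and Tmem173 was at 203 and 194 CPM (0.06, 0.02 to 0.10).

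The inflammasome list, not all of whose genes act with AIM2, had a median log2 ratio of 0.38 in macrophages and -0.07 in microglia. The DNA to STING arm had 0.28 and 0.21. In macrophages 3 of 8 passed: Casp1 (0.59), Casp4 (0.88) and Il18 (1.15). Pycard, the gene of the adaptor ASC, was at 255 and 263 CPM (-0.04, -0.11 to 0.03), and Nlrp3 at 69.0 and 90.9 CPM (-0.40, -0.52 to -0.27). In microglia 0 of 8 passed in either direction, with Il1b at 201 and 251 CPM (-0.32, -0.36 to -0.28) and Casp1 at 38.1 and 39.3 CPM (-0.05, -0.14 to 0.05). Genes past the fold among interferon receptors and their factors included Stat2 (1.05) and Irf1 (0.87) in macrophages and Stat2 (0.58) in microglia, and not every member of that list is named here. Neither Ifnar1 (0.35) nor Ifngr1 (-0.38) reached the fold in macrophages. The type I response list passed in 8 of 8 genes in macrophages (median 1.63) and 7 of 8 in microglia (median 0.66), and the interferon-γ response list in 6 of 8 and 7 of 8. In the macrophages the members' median of 1.16 lay between the medians of the type I list and of the interferon-γ list (1.05), and Aim2, at 0.22, lay below the whole type I list, whose lowest gene was at 1.03.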

How the data were processed

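The authors deposited raw UMI counts per gene and barcode for 2 libraries, made with Cell Ranger (3.1.0 in the matrix headers) on mm10 per the submitters' notes, without normalization or filtering. Their own integration and clustering are not in the deposited values. In total, 101808996 UMIs were counted for WT and 84065489 for CD169-DTR. Cells were barcodes that reached 1000 UMIs with no more than 17% of them mitochondrial. The study states a lower minimum of RNA count, which was not used here. The libraries were normalized (scale factor 10000), integrated (2000 variable features without the family genes, 50 dimensions) and clustered (30 dimensions, resolution 1) with Seurat 5.3.0 in R 4.3.3. A cluster was named from fixed markers when at least 3 were detected and its leading genes did not go against the name. Clusters without a name and neural or glioma cells were left out of the comparisons, and pDC, with 11 cells in CD169-DTR, were described only.

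Counts were summed per class and library and given as CPM with exact Poisson intervals, and ratios with exact conditional intervals, at 95%, in Python 3.11.15 (numpy 2.4.6, scipy 1.17.1, pandas 2.3.3). The scripts were tested on simulated data. Shares of cells, members per cell and splits used cells thinned to 4500 UMIs, which left out shallower cells. In the Siglec1 split, the Siglec1 UMI was called before thinning. Shares have Clopper-Pearson intervals. PCR duplicates are removed by UMIs, and intervals still cover counting error only. A gene was called past the fold at a log2 ratio of 0.5 with at least 20 UMIs over both libraries. Free RNA was profiled from barcodes of 10 to 100 UMIs. Its amount per droplet was estimated from choroid plexus markers in microglia (mean) or microglial markers in lymphocytes (median). Likeness between genes was Pearson's r of log2(CPM + 10) over genes with at least 200 UMIs. Doublets were kept in the values given and removed in an alternative with Scrublet (scanpy 1.11.5). Scrublet's own threshold called 322 and 1 cells, so the 817 and 463 cells of highest score, the rates expected from loading (8.09% and 6.08%), were removed instead. Promoter windows, gene positions and transcript ends came from RefSeq (GRCm38.p6) and GENCODE annotation of GRCm38.

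The genes named are the members, Siglec1 as the targeted gene, and partner lists given by counts. Some items are not reported here. The members and lists were chosen with earlier results of these data known. No test between groups was possible with 1 library per group, and the 13 planned and 2 added alternatives are described with the closing results.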

Additional observations from a re-analysis of the deposited data

Results flagged for a closer look

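The family was also detected in clusters that belong to no compared class, above the limit that a count of 0 allows. The cluster led by Acta2 and Tagln, with 24 WT and 22 CD169-DTR cells, had a summed level of 681.6 CPM in WT and 76.03 CPM in CD169-DTR. The cluster led by Dcn and Col1a1, with 17 and 18 cells, had 179.9 and 119 CPM. The cluster led by Mcpt2 and Cma1, with 26 and 9 cells, had 190.8 and 110.4 CPM. The cluster of neural or glioma cells led by Serpina3n and Col9a2, with 10 and 13 cells, had 49.67 and 67.07 CPM. Free RNA of the same libraries held the members at 1986 and 747 CPM, and its part in these levels was not tested.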

How the results depend on the processing

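The ratios of WT over CD169-DTR were recomputed under 15 settings, of which cells of 5000 to 10000 UMIs and free RNA subtracted by choroid plexus markers were chosen after seeing the data. Of 135 counts of members past the fold by class and setting, 133 were within 1.5 times the count reported. The exceptions were 4 members in DC and 4 in choroid plexus cells among cells of 5000 to 10000 UMIs. Ratios of members other than Aim2 were above 0 in 1057 of 1062 values and at least 0.5 in 996, and those of Aim2 were above 0 in 80 of 135 and at least 0.5 in 2. Ratios over 0 UMIs, which have no value, were counted as above. The summed macrophage log2 ratio of 1.06 became 1.11 with median-ratio scaling, 0.93 with equal weight per cell, 0.71 with equal weight per cluster, 1.09 without the highest Scrublet scores and 0.94 in cells of 5000 to 10000 UMIs. The microglial ratio of 0.56 became 0.60, 0.59, 0.43, 0.51 and 0.65 under the same settings, 0.53 with free RNA subtracted by microglial markers and 0.51 by choroid plexus markers. Aim2 turned to -0.017, -0.00076 and -0.28 in macrophages (equal weight per cell, equal weight per cluster, cells of 5000 to 10000 UMIs) and to -0.10 in DC (the last setting). Ifi207 in endothelial cells turned to -0.21 and Ifi203 in choroid plexus cells to -0.061 without the highest Scrublet scores, and Ifi211 in endothelial cells to -0.11 in cells of 5000 to 10000 UMIs. The log2 ratio of macrophages over microglia, 2.22 in WT, became 2.25, 2.39 and 2.29 (free RNA by microglial markers, equal weight per cell, free RNA by choroid plexus markers), and in CD169-DTR 1.71 became 2.05 with equal weight per cell. The Siglec1 split of WT macrophages, 0.09, became 0.14 with thinning to 1500 UMIs, and that of CD169-DTR macrophages, 0.46, became 0.29 without thinning. Ifi207 in the latter turned to -0.017 with thinning to 1500 UMIs. The causes of these shifts were not tested.

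Leaving out a replicate was not possible with 1 library per group. No paired analysis was possible because each group has 1 library. Depth limits the small classes and Ifi205 in lymphocytes, granulocytes, endothelial cells and choroid plexus cells, where counts of 0 to 4 UMIs were seen in CD169-DTR.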

Other observations

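pDC, the cells known for releasing large amounts of type I interferon, were left out of the comparisons because CD169-DTR held 11 of them beside 102 in WT. In WT, their levels of Ifi211 and Ifi205 were nearer to those of NK cells than to those of macrophages. Ifi211 was at 91.9 CPM in pDC, 63.5 in NK cells and 391 in macrophages, and Ifi205 at 30.4, 13.7 and 221 CPM. Mndal and Ifi203 did not separate these classes. They were at 509 and 423 CPM in pDC, 568 and 467 CPM in NK cells and 544 and 466 CPM in macrophages. Ifi207 lay between, at 191 CPM in pDC beside 39.8 CPM in NK cells and 413 CPM in macrophages. The summed level was 1763 CPM in WT and 1010 CPM in CD169-DTR (log2 ratio 0.80, 0.55 to 1.06), a value that rests on 137 UMIs of the 11 cells.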
